A study of Mus musculus with 21 samples.

Results

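Glycolysis, glycogen metabolism and lactate transport were described through 36 genes in 2 mouse tissues. BAT is brown adipose tissue, a fat that makes heat from fuel, and WV is the white vastus, a fast muscle of the thigh. The genes were found by symbol, and where a symbol had several gene models the model with the highest summed count was used. Of the 36, 35 had a row among the 28541 gene models of each table. Levels of Eno1, an enolase, were not analysed here. Pfkm, Pgam2, Eno3 and Pygm are isoforms typical of muscle and are called the muscle isoforms below. The other 31 genes hold widely expressed forms and also further muscle forms, such as Phkg1, Fbp2 and Gys1.

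RNA sequencing counts came from 21 libraries of whole mouse tissue. BATI4KO mice were set against floxed littermates, which carry the loxP-flanked Irf4 gene without Cre. From knowledge of the study, BATI4KO mice lose the transcription factor Irf4 in brown adipocytes through Cre driven by the Ucp1 promoter. Other cells of the fat, and muscle, keep the gene. There were 5 floxed and 6 BATI4KO libraries of BAT, and 5 per genotype of WV. The sources used here do not give age, sex or diet. Nothing states that each library is a separate mouse, so p-values measure the spread between libraries. Libraries are called by their titles, in which FX is floxed and KO is BATI4KO. Titles in BAT carry a short number in 3 floxed and 3 BATI4KO libraries and a long tag in the others, and all WV titles carry long tags. Because tissue was taken whole, fewer cells of a type and less RNA per cell cannot be told apart.

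Glycolysis turns glucose into pyruvate, and lactate dehydrogenase turns pyruvate into lactate when it is made faster than mitochondria use it. Glycogen is the store that phosphorylase breaks down during contraction. Fast muscle relies on this pathway for power and carries its own isoforms of several steps, while brown fat takes up much glucose and uses it to make glycerol phosphate and lipid as well as to burn it.

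Total counts ran from 20219479 to 41773148 per library. Irf4 itself, which checks the labels, lay between 23.9 and 59.8 CPM (counts relative to the scaled library total) in floxed BAT and between 6.57 and 8.10 CPM in BATI4KO BAT, with no overlap. Ucp1, the uncoupling protein that marks brown fat, lay between 1401 and 7606 CPM in BAT and at 0.299 CPM or below in WV. The fast myosin Myh4 lay between 30330 and 90010 CPM in WV. A list of 20 fast muscle contractile genes, none of them among the 36, took 2.80% of all counts in BAT_KO_3 and 0.023% to 0.411% in the other 10 BAT libraries. In WV, a list of 9 slow muscle genes summed to 1830 and 2338 CPM in WV_KO_5492 and WV_KO_5495 and to 49.1 to 643 CPM in the other 8. CPM were scaled within each tissue, so levels set side by side across tissues rest on separately set scales.

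Levels between genes were compared per length, as CPM per kilobase of gene model (RPKM). In BAT, Gpd1 stood highest of the 35 genes, at 1815 ± 561 RPKM (SD, n = 11). It encodes the cytosolic enzyme that makes glycerol phosphate from a glycolytic intermediate. Aldolase A, Aldoa, followed at 1113 ± 331 RPKM. Ldha at 460 ± 170, Pkm2 at 410 ± 138 and Ldhb at 399 ± 52.7 RPKM came next, with overlapping spreads. In WV, Aldoa stood highest at 6106 ± 941 RPKM (SD, n = 10). The muscle enolase Eno3 followed at 2696 ± 341 RPKM and the muscle glycogen phosphorylase Pygm at 2199 ± 472 RPKM, with overlapping spreads. Ldha at 1268 ± 184, Pgam2 at 1077 ± 110, Pkm2 at 1003 ± 144, Pfkm at 929 ± 152 and Tpi1 at 925 ± 106 RPKM formed the next step of the order. The 35 genes together took 1.37% to 2.41% of the counts of a BAT library and 3.25% to 4.93% of a WV library. Gapdh, at 34.8 RPKM in BAT and 115 RPKM in WV, lay far below its neighbours in the pathway. It has 4 gene models in the tables and near-identical copies in the genome, so its level is uncertain.

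**Figure D1:**
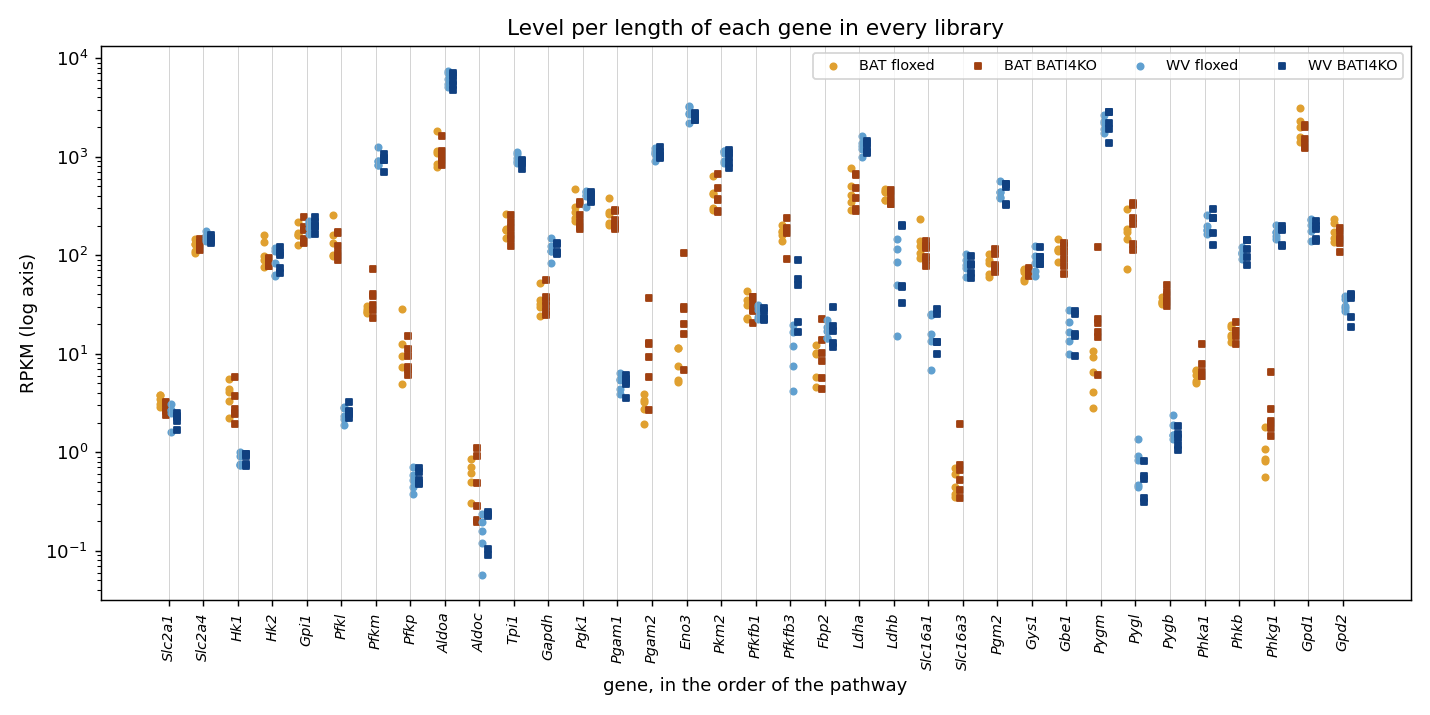
Level per length (RPKM, log axis) of each of the 35 genes in every library, in the order of the pathway, with circles for floxed and squares for BATI4KO mice in BAT (orange and brown) and WV (light and dark blue). Pfkm, Pgam2, Eno3, Pygm, Slc16a3 and Phkg1 lie far higher in WV and Pfkl, Pgam1, Pygl and Gpd1 higher in BAT, while the 2 genotypes overlap within each tissue for every gene.

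The tissues were compared in one fit of edgeR's quasi-likelihood test over all 21 libraries, with Benjamini-Hochberg adjustment over 16632 genes and a threshold of 0.05. In floxed mice, 20 of the 35 genes were higher in WV and 12 were lower, and 3 (Slc2a1, Hk2 and Aldoc) did not pass. Of all genes tested, 31.7% were higher and 34.1% were lower, so the 12 of 35 lower stand at the background share and the 20 of 35 higher above it. The median log2 difference of the 35 genes was 0.95, against -0.11 over all genes tested. In BATI4KO mice 22 were higher and 10 lower, beside 33.1% and 37.4% of all genes, and Aldoc, Pfkfb3 and Ldhb did not pass. Scaling by library totals alone moved the median of all genes to -0.79 in floxed and -1.09 in BATI4KO mice. It moved the share of higher among all called genes from 48.2% to 21.8% in floxed mice and from 47% to 16.8% in BATI4KO mice. Smaller tissue differences therefore depended on the scaling: in BATI4KO mice the glucose transporter Slc2a1 stood at 0.45, hexokinase Hk2 at 0.83 and Pfkfb1 at 0.68, and these became -0.48, -0.16 and -0.28. Also in BATI4KO mice, Gpi1, Pgk1, Fbp2 and Slc2a4 were no longer called with library totals, at 0.02, 0.28, 0.30 and 0.07. Without title style in the fit, Slc2a1 and Hk2 passed in floxed mice (0.46 and 0.55, adjusted p = 0.013 and 0.0406, edgeR). There Pgk1 moved from 0.95 to 1.32 and Fbp2 from 1.36 to 1.91. With title style kept, Slc2a1 passed with RLE factors (adjusted p = 0.0354, edgeR) but not with upper-quartile factors (adjusted p = 0.19, edgeR).

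The 4 muscle isoforms were all far higher in WV. In floxed mice the log2 difference, WV minus BAT, was 6.02 ± 0.35 (SE) for Pfkm, 9.59 ± 0.63 for Pgam2, 9.55 ± 0.71 for Eno3 and 9.62 ± 0.83 for Pygm, with adjusted p between 2.62e-12 and 1.44e-09. In BATI4KO mice the same differences were 5.49, 7.42, 7.35 and 7.39. The widely expressed and liver-type relatives were lower. Pfkl, the liver-type phosphofructokinase, was lower in WV by 44.0-fold in floxed mice, Pgam1, the widely expressed phosphoglycerate mutase, by 33.4-fold, and Pygl, the liver glycogen phosphorylase, by 163-fold. Phosphofructokinase commits sugar to glycolysis, and its family passed from Pfkl to Pfkm. Pfkm made up 16.1% ± 4.82 (SD, n = 5) of the family's transcripts per length in floxed BAT and 99.7% ± 0.0938 (SD, n = 5) in floxed WV. Pgam2 made up 1.23% ± 0.533 of its pair in floxed BAT and 99.5% ± 0.141 in floxed WV. Pygm made up 3.62% ± 2.11 of the phosphorylases in floxed BAT, where Pygl held 78.4% ± 9.34 and the brain-type Pygb 18.0% ± 7.74, and 99.9% ± 0.0524 in floxed WV.

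**Figure D2:**
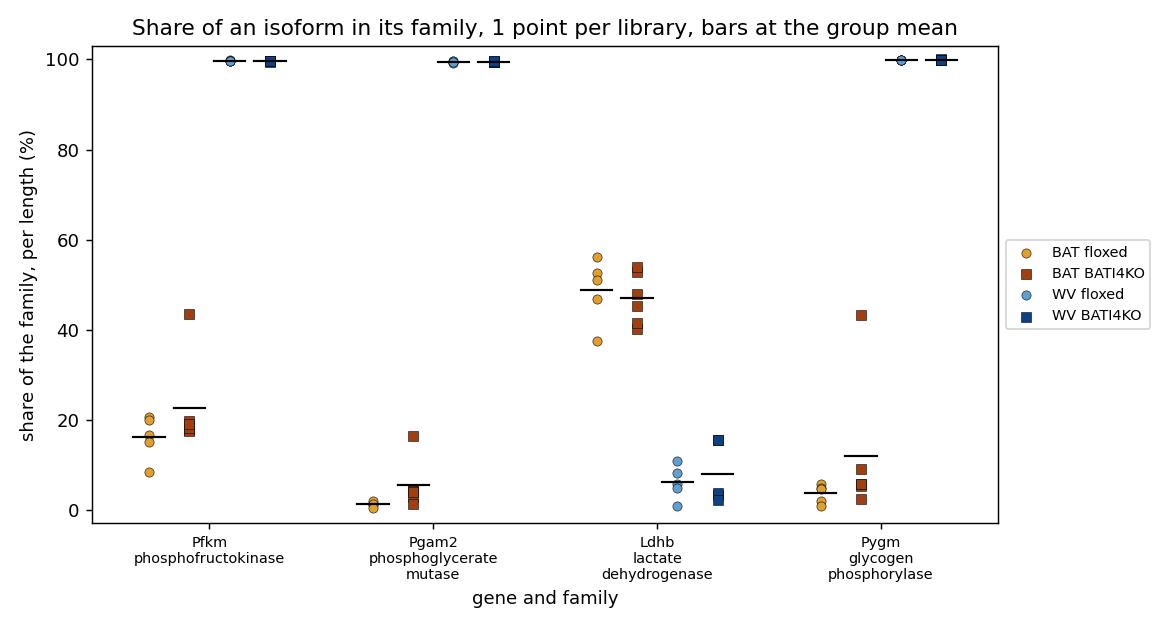
Share of Pfkm, Pgam2, Ldhb and Pygm in its family, per length in percent, with 1 point per library and a bar at each group mean. In WV, Pfkm, Pgam2 and Pygm lie above 99% in every library; in BAT, BAT_KO_3 lies apart at 43.4% for Pfkm, 16.4% for Pgam2 and 43.2% for Pygm.

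The core steps shared by most tissues moved less. In floxed mice Aldoa, which splits fructose bisphosphate, was higher in WV by 3.07 ± 0.31 (SE) on the log2 scale, Tpi1, which interconverts its products, by 2.96 ± 0.19, and Gapdh by 2.35 ± 0.23. Pkm2, the row that holds pyruvate kinase M, was higher by 1.81 ± 0.25, and the isomerase Gpi1 and the kinase Pgk1 each by 0.95, which did not hold with library totals (0.25 each, adjusted p = 0.166 and 0.155, edgeR). Fbp2, the muscle fructose bisphosphatase, was higher by 1.36 ± 0.35 and Pfkfb1 by 0.76 ± 0.20, and neither held with library totals (0.67 and 0.04, adjusted p = 0.0695 and 0.863, edgeR). Pfkp, the platelet-type phosphofructokinase, was lower by 18.0-fold and Pygb by 11.6-fold. Aldoc, at 1.91 CPM or below in every library, had a difference of -1.06 ± 0.56 and did not pass (adjusted p = 0.098, edgeR).

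The lactate genes changed partner as well. Slc16a3, the lactate exporter MCT4, lay between 0.886 and 5 CPM in BAT and between 152 and 262 CPM in WV, a log2 difference of 8.48 ± 0.44 in floxed mice (adjusted p = 5.15e-13, edgeR). Slc16a1, the lactate carrier MCT1, was lower in WV by 2.44 ± 0.35 on the log2 scale (adjusted p = 2.45e-06, edgeR). Per length, Slc16a3 made up 0.387% ± 0.152 of the pair in floxed BAT and 82.3% ± 7.16 in floxed WV (SD, n = 5). Ldhb, the heart-type lactate dehydrogenase, which favours the making of pyruvate from lactate, held 48.8% ± 7.16 of the pair in floxed BAT and 6.12% ± 3.75 in floxed WV. The muscle-type Ldha was higher in WV by 1.91 ± 0.23 on the log2 scale.

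The 3 phosphorylase kinase subunits measured, parts of the enzyme that switches phosphorylase on, were higher in WV in floxed mice, with log2 differences of 5.94 ± 0.32 for Phka1, 3.43 ± 0.20 for Phkb and 8.51 ± 0.47 for Phkg1. Gys1, the glycogen synthase of muscle, was higher by 1.29 ± 0.20 and the phosphoglucomutase listed as Pgm2, a symbol that has been used for different mouse genes, by 3.11 ± 0.23. Gbe1, the branching enzyme, was lower in WV by 3.94-fold. Hk1, a hexokinase with wide expression, was lower by 3.05-fold in floxed mice, and the insulin-responsive glucose transporter Slc2a4 was higher by 1.12 ± 0.14 on the log2 scale. Both enzymes of the glycerol phosphate shuttle, which passes reducing power into mitochondria, were lower in WV: Gpd1 by 7.03-fold and Gpd2 by 3.51-fold. Pfkfb3, which makes the activator of phosphofructokinase, was lower in WV by 6.79-fold in floxed mice.

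Outside the 36 genes, a list of 50 further glycolysis, glycogen and lactate genes was tested in the same fit. Of 43 tested, 20 were higher and 14 lower in WV of floxed mice, beside 31.7% higher and 34.1% lower of all genes tested. The lower count stands near that background share. The furthest up were Ppp1r3a, the glycogen-targeting phosphatase subunit of muscle, at a log2 difference of 9.93, Pfkfb4 at 5.10 and the glucose 6-phosphate carrier Slc37a4 at 4.25. The furthest down were the liver glycogen synthase Gys2 at -8.08, the liver glycogen-targeting subunit Ppp1r3b at -7.40 and the fructose transporter Slc2a5 at -6.93. Slc2a5 had no count in some WV libraries of either genotype, so its difference depends on the prior count of the fit. None of this list passed for genotype in either tissue, of 43 tested in BAT and 41 in WV.

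Genotype in BAT was tested over 16051 genes with edgeR and title style as a covariate, which asks what loss of Irf4 in brown adipocytes changes in the fat. No gene of the 35 passed, where 0.0436% of all genes did; 9 had an unadjusted p under 0.05, beside 14.7% of all genes. No gene of the 35 separated the genotypes without overlap, beside 1% of all genes tested. The muscle isoforms had a median log2 difference, BATI4KO minus floxed, of 2.11, the other 31 genes of -0.10, and all genes tested of -0.01. The largest differences among the 35 were Pygm at 2.28 ± 0.67 (SE, adjusted p = 0.191, edgeR), Pgam2 at 2.16 ± 0.53 (adjusted p = 0.154, edgeR) and Eno3 at 2.06 ± 0.57 (adjusted p = 0.183, edgeR). Pfkm stood at 0.49 ± 0.24. DESeq2 called Pgam2 (log2 2.15, adjusted p = 0.0213) and Phkg1 (1.45, adjusted p = 0.0123), and it called 198 genes higher and 174 lower in all, where edgeR called 3 and 4.

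Pygm, which frees glucose from glycogen in muscle, was at 11.7, 18.4, 26.4, 30.1 and 7.93 CPM in BAT_FX_1, BAT_FX_2, BAT_FX_3, BAT_FX_5497 and BAT_FX_5503. In BAT_KO_1, BAT_KO_2, BAT_KO_3, BAT_KO_5414, BAT_KO_5492 and BAT_KO_5494 it was at 41.9, 17.4, 348, 58.3, 64.7 and 47.6 CPM. BAT_KO_3 stood far above the rest, and BAT_KO_2 lay inside the floxed range, so the groups overlapped.

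Eno3, the muscle enolase, was at 8.48, 11.6, 17.7, 17.7 and 8.09 CPM in the floxed libraries and at 24.6, 10.5, 163, 45.8, 44.1 and 31.2 CPM in the BATI4KO libraries, in the same order. Pgam2, the muscle mutase, was at 2.48, 2.91, 3.56, 3.07 and 1.75 CPM in floxed and at 5.24, 2.44, 33.1, 11.7, 11.3 and 8.40 CPM in BATI4KO libraries. In both genes 5 of 6 BATI4KO libraries lay above all floxed libraries and BAT_KO_2 lay among them. Pfkm was at 86.5, 82.8, 79.7, 93.7 and 80.4 CPM in floxed and at 83.8, 69.7, 222, 118, 123 and 95.0 CPM in BATI4KO libraries. Its floxed libraries sat close together, with a coefficient of variation of 6.79%, against 24.8% for Pgam2, 37.5% for Eno3 and 49.8% for Pygm.

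Contractile transcripts moved with these genes. The summed contractile list lay between 266 and 1711 CPM in floxed BAT and between 929 and 25520 CPM in BATI4KO BAT, and all 20 of its genes had a positive genotype difference, with a median of 2.63 on the log2 scale and none passing. The list's defining genes were present in every BAT library, with Ckm at 7.73 to 492 CPM and Myh4 at 41.95 to 1781 CPM. Of 8 slow muscle genes tested, 7 had a positive difference. The 7 brown adipocyte markers had a median difference of -0.40, with 1 positive, and their sum lay between 7800 and 17880 CPM in floxed and between 5650 and 12220 CPM in BATI4KO libraries. The blood, endothelial, macrophage and Schwann cell lists had medians of 0.11, -0.14, -0.03 and -0.07. With the mean log2 level of the contractile list (the fast muscle score) as a further covariate, the median genotype difference of the muscle isoforms was -0.01 in place of 2.11. Without BAT_KO_3 it was 1.11, with Pygm at 1.13, Pgam2 at 1.27, Eno3 at 1.08 and Pfkm at 0.14. Within the short-numbered libraries Pygm, Pgam2, Eno3 and Pfkm differed by 2.86, 2.19, 2.40 and 0.59 on the log2 scale, and within the long-tagged ones by 1.59, 2.14, 1.66 and 0.38.

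**Figure D3:**
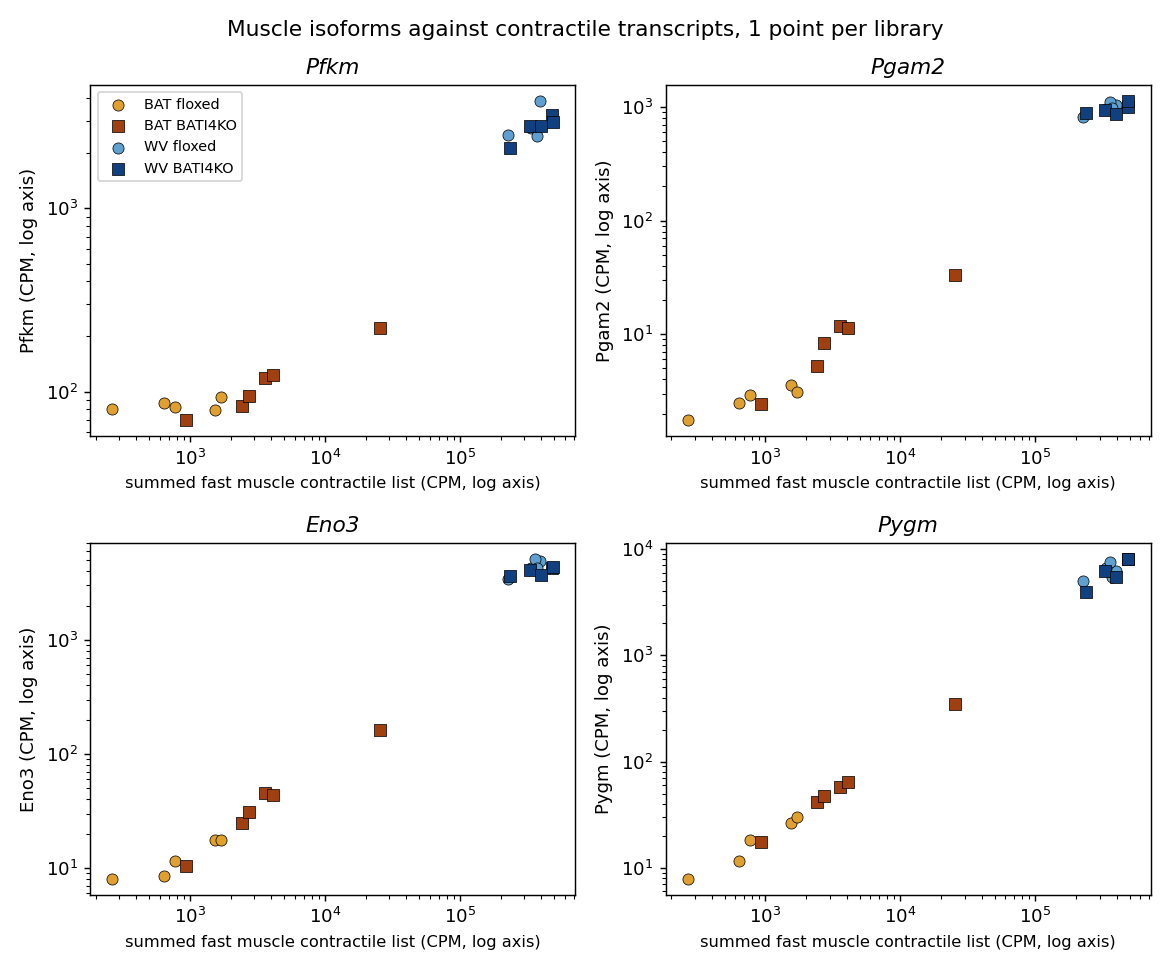
Level of Pfkm, Pgam2, Eno3 and Pygm (CPM, log axis) against the summed level of 20 fast muscle contractile genes (CPM, log axis), with 1 point per library. Across BAT, Pgam2, Eno3 and Pygm climb with the contractile sum toward the WV libraries, from 266 CPM to 25520 CPM on the horizontal axis, while Pfkm stays between 69.7 and 123 CPM until BAT_KO_3 at 222 CPM.

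The score was also tested as a slope, with genotype and title style in the fit. Of the 35 genes 5 rose with it, beside 1.28% of all genes tested, and none fell. The slope, in log2 units per unit of the score, was 0.85 ± 0.05 (SE) for Pygm, 0.74 ± 0.06 for Eno3, 0.68 ± 0.08 for Pgam2, 0.42 ± 0.08 for Phkg1, the muscle catalytic subunit of phosphorylase kinase, and 0.28 ± 0.05 for Pfkm. Adjusted p ran from 3.79e-07 for Pygm to 0.0247 for Phkg1 (edgeR). Without BAT_KO_3 only 2 of them passed, Eno3 and Pygm, and without BAT_KO_1 there were 3. Within the short-numbered libraries alone Pygm, Eno3, Pgam2 and Slc16a3 passed, and within the long-tagged ones Pygm did (0.73, adjusted p = 0.0237, edgeR). The 1.28% belongs to the fit of all BAT libraries, and the shares of all genes passing in these smaller fits are not given here. Of the 43 further pathway genes 1 rose, Ppp1r3a, at 1.005 ± 0.07 (adjusted p = 1.94e-06, edgeR). The remaining 30 of the 35 had slopes between -0.17 (Pfkp) and 0.41 (Slc16a3, adjusted p = 0.0949, edgeR).

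Counts of each isoform were set against those of the contractile list. Per 100 contractile counts, BAT held 1.37 to 2.98 Pygm counts (n = 11) and WV held 1.37 to 2.21 (n = 10). Eno3 gave 0.64 to 3.04 in BAT and 0.878 to 1.53 in WV, and Pgam2 gave 0.13 to 0.656 in BAT and 0.207 to 0.378 in WV. For these 3 genes the ranges of the tissues overlapped. Pfkm gave 0.869 to 30.2 in BAT and 0.601 to 1.11 in WV, so it stood above the WV ratio in all BAT libraries but BAT_KO_3. With Ckm alone as the denominator, the median ratio in floxed BAT was 2.48 times that of floxed WV for Pygm, against 0.916 times with the whole list.

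Promoter windows, 250 bases before to 50 bases after the transcription start, are shown for Pgam2, Eno3 and Pygm because these genes moved together across the BAT libraries, for Pgam1 as the widely expressed partner that Pgam2 replaces in muscle, and for Ldhb, the gene of the 35 with the steepest slope on slow muscle transcripts in WV. The sequences are RefSeq's, on build GRCm38.p6, written 5′ to 3′ on the strand of the gene. Capitals mark CANNTG, the E-box core bound by the MyoD family and other helix-loop-helix factors. In Ldhb they mark CTA and TAG with any 4 bases between. This pattern is looser than the MEF2 site, which takes only A or T at these 4 bases, and both stretches marked in Ldhb hold a G or C there.
Pgam2 (chr11:5803747-5804046, minus strand): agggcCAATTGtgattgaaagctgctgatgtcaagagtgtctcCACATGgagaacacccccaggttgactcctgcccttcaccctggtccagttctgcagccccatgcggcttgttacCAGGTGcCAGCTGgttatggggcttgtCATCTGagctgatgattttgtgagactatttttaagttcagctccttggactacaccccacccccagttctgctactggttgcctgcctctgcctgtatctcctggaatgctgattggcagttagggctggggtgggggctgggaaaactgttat
Eno3 (chr11:70656926-70657225, plus strand): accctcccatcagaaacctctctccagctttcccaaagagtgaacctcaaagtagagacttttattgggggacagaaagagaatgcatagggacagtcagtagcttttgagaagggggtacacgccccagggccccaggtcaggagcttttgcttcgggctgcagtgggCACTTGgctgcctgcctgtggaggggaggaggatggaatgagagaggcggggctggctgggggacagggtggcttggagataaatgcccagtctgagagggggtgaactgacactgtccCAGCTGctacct
Pygm (chr19:6384158-6384457, plus strand): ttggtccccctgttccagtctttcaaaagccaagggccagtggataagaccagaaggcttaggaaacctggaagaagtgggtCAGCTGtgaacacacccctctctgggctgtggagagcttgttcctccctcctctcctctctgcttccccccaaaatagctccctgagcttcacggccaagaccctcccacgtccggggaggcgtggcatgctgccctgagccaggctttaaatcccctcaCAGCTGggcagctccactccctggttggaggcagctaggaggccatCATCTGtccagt
Pgam1 (chr19:41911621-41911920, plus strand): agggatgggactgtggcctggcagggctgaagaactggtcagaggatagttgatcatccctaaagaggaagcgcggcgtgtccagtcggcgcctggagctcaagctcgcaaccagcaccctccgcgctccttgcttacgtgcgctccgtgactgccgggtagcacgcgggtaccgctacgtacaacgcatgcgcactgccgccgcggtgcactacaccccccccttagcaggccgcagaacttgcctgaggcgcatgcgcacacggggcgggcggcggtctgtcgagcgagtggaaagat
Ldhb (chr6:142507908-142508207, minus strand): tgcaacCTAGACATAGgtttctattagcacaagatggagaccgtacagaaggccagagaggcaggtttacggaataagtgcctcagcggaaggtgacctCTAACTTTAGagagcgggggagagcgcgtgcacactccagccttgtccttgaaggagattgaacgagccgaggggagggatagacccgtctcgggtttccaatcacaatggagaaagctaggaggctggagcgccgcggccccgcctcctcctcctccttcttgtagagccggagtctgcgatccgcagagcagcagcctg

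Both motifs read the same on either strand, and in the windows shown no match of one overlaps a match of the other. Pgam2 held 5 E-box cores, Pygm 3, Eno3 2 and Pgam1 and Ldhb 0. Of all 32851 windows, 72.3% held at least 1 E-box core and 17.6% held 3 or more. At least 1 was in 85.7% of the muscle isoforms' windows and in 66.7% of the other genes' windows. Among the other genes, Fbp2 and Phkg1 also held 5 and the liver-type Pfkl held 3, so the cores did not set the muscle isoforms apart. Pfkm has 4 windows, with 3, 0, 1 and 1 cores, and is not shown. The loose MEF2 pattern was in 3.69% of all windows and in none of the 7 windows of the muscle isoforms. It was in Ldhb with 2 matches and in Phka1 with 1. GAANNGAAA, part of the site of interferon regulatory factors, was in 7.52% of all windows, in none of the muscle isoforms' windows and in 2 of the 42 windows of the other genes, 1 each of Aldoc and Pfkfb1. The windows cover 33 of the 36 genes, and the 42 include 3 of Eno1; Slc2a4, Gpd1 and Pgm2 were not matched. A match describes letters only.

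Of the other 31 genes in BAT, 12 had a higher and 19 a lower level in BATI4KO mice, with log2 differences from -0.45 to 1.47, and none passed. Phkg1 had the largest of these, at 1.47 ± 0.40 (SE, adjusted p = 0.18, edgeR). It lay between 1.32 and 4.25 CPM in floxed and between 3.46 and 15.5 CPM in BATI4KO libraries, so the groups overlapped at these low levels. Gpd1, Slc16a1, Hk2, Gpd2 and Pgk1 had lower means in BATI4KO BAT without passing. This was not shared across glycolysis: without title style in the fit, Aldoa, Pkm2, Ldha, Gapdh and Gpi1 had log2 differences of -0.06, -0.04, -0.01, 0.01 and 0.04. Gpd1 was at 6424, 4462, 3956, 5562 and 8645 CPM in the floxed and at 3939, 3535, 3424, 5592, 5857 and 4209 CPM in the BATI4KO libraries, a log2 difference of -0.45 ± 0.16 (adjusted p = 0.238, edgeR). The lactate carrier Slc16a1 stood at -0.41 ± 0.14, hexokinase Hk2 at -0.37 ± 0.14, Gpd2 at -0.32 ± 0.14 and the kinase Pgk1 at -0.31 ± 0.12, with adjusted p between 0.209 and 0.325 (edgeR). BAT_FX_5503 was the highest of the 11 for these 5 genes. Without it Slc16a1 stood at -0.24, Hk2 at -0.25, Pgk1 at -0.20, Gpd1 at -0.33 and Gpd2 at -0.26. Slc2a4 and Gys1 had log2 differences of 0.02 ± 0.10 and 0.05 ± 0.10 (SE).

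**Figure D4:**
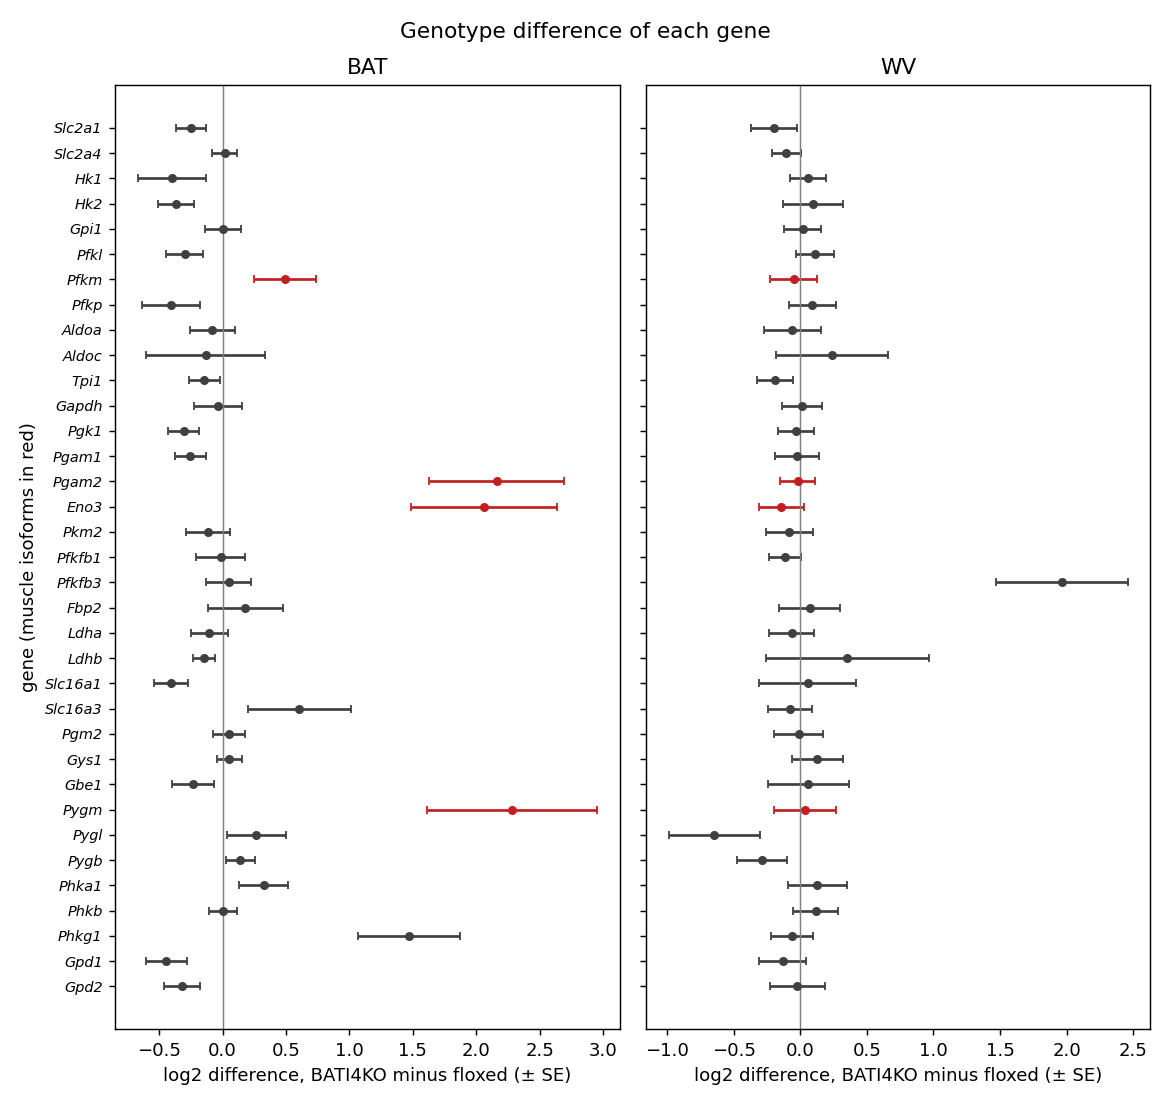
Log2 difference of each gene, BATI4KO minus floxed, with bars of 1 standard error, in BAT (left, 11 libraries) and WV (right, 10 libraries), with the muscle isoforms in red. None passed an adjusted p of 0.05; Pgam2, Eno3 and Pygm lie near 2 in BAT and near 0 in WV, and Pfkfb3 lies at 1.96 in WV and 0.05 in BAT.

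In WV, which asks whether a muscle outside the fat differs in BATI4KO mice, none of the 35 genes passed for genotype, where 0.00688% of 14529 genes did; 1 had an unadjusted p under 0.05, beside 8.91% of all genes. No gene of the 35 separated the genotypes, beside 1.24% of all. The median log2 difference was -0.03 for the muscle isoforms and -0.01 for the other 31 genes. Pgam2 had a difference of -0.02 ± 0.13 and Pygm of 0.04 ± 0.23 (SE). The exception in size was Pfkfb3, at 1.96 ± 0.49 (adjusted p = 0.335, edgeR). It was at 111, 94.1, 23.3, 66.9 and 42.6 CPM in WV_FX_5413, WV_FX_5415, WV_FX_5497, WV_FX_5503 and WV_FX_5514, and at 117, 500, 279, 92.6 and 325 CPM in WV_KO_5492, WV_KO_5493, WV_KO_5494, WV_KO_5495 and WV_KO_5496. All but 1 of the BATI4KO libraries lay above every floxed library, and WV_KO_5495 lay among them. DESeq2 called it, at 1.97 with adjusted p = 0.0371, among 29 genes called higher and 82 lower. In the slow muscle list none of 9 genes passed for genotype in WV; all were positive, with a median of 1.94 and sums of 49.1 to 643 CPM in floxed and 75.2 to 2338 CPM in BATI4KO libraries. All BATI4KO sums but those of WV_KO_5492 and WV_KO_5495 lay inside the floxed range, and 9 of the 20 fast contractile genes were positive, with a median of -0.06.

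The genotype difference in BAT minus that in WV was tested as an interaction. No gene of the 35 passed, where 0.018% of 16632 genes did, and 6 had an unadjusted p under 0.05, beside 10.6% of all. The muscle isoforms had a median of 2.18, with Pygm at 2.24 ± 0.77, Eno3 at 2.19 ± 0.65 and Pgam2 at 2.171 ± 0.58 (SE, adjusted p = 0.268 for Pgam2, edgeR). Pfkfb3 stood at -1.92 ± 0.55 (adjusted p = 0.268, edgeR). Among the long-tagged libraries alone Pgam2 passed, at 2.14 with adjusted p = 0.0142 (edgeR), and the share of all genes passing there is not given here.

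Slow muscle transcripts varied widely among the WV libraries: Myh7, the slow myosin, ranged from 0.675 CPM to 1007 CPM. A slope on the slow muscle score, the mean log2 level of the 9 slow genes, was fitted with genotype over 14529 genes after the values had been seen. Of the 35 genes 3 rose and 2 fell with it, beside 2.55% of all genes. Ldhb rose by 0.45 ± 0.05 (SE) log2 units per unit of the score (adjusted p = 0.000426, edgeR). It was at 110, 64.7, 148, 19.5 and 190 CPM in WV_FX_5413, WV_FX_5415, WV_FX_5497, WV_FX_5503 and WV_FX_5514 and at 255, 60.8, 62.3, 259 and 42.5 CPM in the BATI4KO libraries from WV_KO_5492 to WV_KO_5496. The highest values were those of the slow-rich libraries WV_KO_5492 and WV_KO_5495, and Ldhb stayed past the threshold without any single library. Without both of them the slope was 0.53 with adjusted p = 0.0855 (edgeR), and none of the 35 genes passed.

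Slc16a1, which carries lactate into oxidative fibres, rose by 0.24 ± 0.04 (adjusted p = 0.0145, edgeR), but missed the threshold without WV_KO_5492 (adjusted p = 0.0581) or WV_KO_5495 (adjusted p = 0.0524). Gbe1 rose by 0.18 ± 0.04 (adjusted p = 0.0495, edgeR) and missed it without any 1 of 9 of the 10 libraries. Gpd2 fell by 0.13 and Phkg1 fell by 0.09 on the log2 scale, with adjusted p of 0.0412 and 0.0364 (edgeR), and neither passed without any 1 of 8 of the 10 libraries. The muscle isoforms had slopes between -0.09 and -0.03 and none passed. Pfkfb3 had a slope of -0.29 ± 0.08 (adjusted p = 0.115, edgeR), and with the score as a covariate its genotype difference was 2.15 (adjusted p = 0.073, edgeR).

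**Figure D5:**
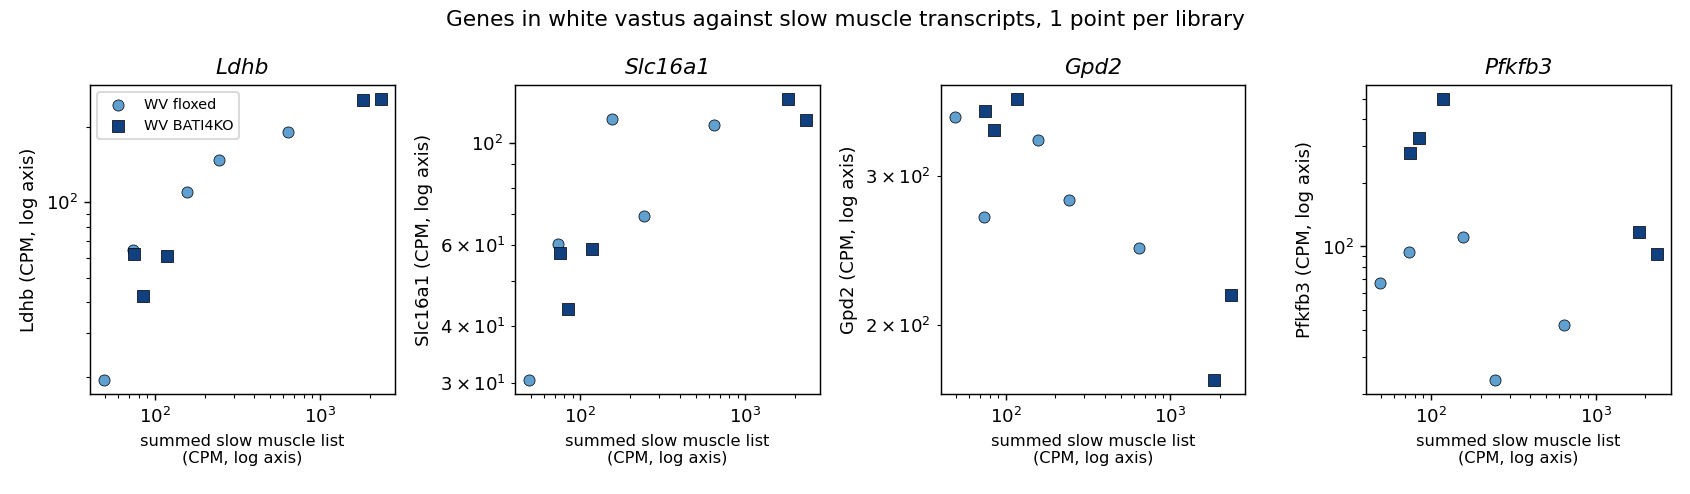
Level of Ldhb, Slc16a1, Gpd2 and Pfkfb3 in WV (CPM, log axis) against the summed level of 9 slow muscle genes (CPM, log axis), with 1 point per library. Ldhb climbs from 19.5 to 190 CPM along the axis in the floxed libraries. In BATI4KO mice Ldhb is high, at up to 259 CPM, in WV_KO_5492 and WV_KO_5495 and lies at 42.5 to 62.3 CPM in the others. Gpd2 is lowest, at 173 and 217 CPM, in the BATI4KO libraries with the most slow transcripts. Pfkfb3 separates 3 BATI4KO libraries with few slow transcripts, at 279 to 500 CPM, from the rest.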

How the data were processed

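The deposited tables hold raw read counts per gene model, 1 table per tissue. Per the submitters' processing notes the build was mm9, featureCounts 1.4.6 and TopHat2 2.0.14 are listed, and bcl2fastq 2.17.1.14, SAMtools 0.1.19, edgeR and Picard 2.2.4 are also named, with no order or role. How strand and duplicates were handled is not stated there. Per the labels' protocols, ribosomal RNA was depleted and cDNA primed with random hexamers before Nextera XT. From the deposited counts, genes kept by filterByExpr entered edgeR 4.0.16 in R 4.3.3, with TMM factors, the quasi-likelihood test and Benjamini-Hochberg adjustment over all genes. BAT fits and the fit of both tissues hold title style, since the numbers differ in kind and the labels do not say what they mean. Scores are mean log2 CPM of a marker list, with a prior count of 2. Isoform shares were computed per length from counts. limma 3.58.1, DESeq2 1.42.0, other scalings, filters and libraries left out were alternatives. The members and lists were chosen with earlier results of these data known, and the WV slope, its alternatives and the BAT slopes within each title style after seeing the values. Further pathway genes are named if they passed for genotype or were among the 3 furthest apart between tissues in each direction. Phka2 and Phkg2 are named beside the other phosphorylase kinase subunits. Those named for a slope were chosen after their values were seen. Slopes of the further pathway genes in WV are not reported here. No 2 libraries of a group agreed within sampling noise, the closest pair having a chi-square of 30.4 per gene. The tests were checked on simulated counts.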

Additional observations from a re-analysis of the deposited data

Results flagged for a closer look

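Of 140 groups (35 genes in 4 groups of libraries), 9 held 1 library far from the others by Dixon's ratio, where chance gives about 1 in 20. BAT_KO_3, the library with 2.80% contractile counts, was the high one in 7: Pfkm at 221.6 CPM, Pgam2 at 33.11, Eno3 at 163.4, Slc16a3 at 5, Pygm at 348.2, Phka1 at 78.25 and Phkg1 at 15.5 CPM. The next highest BATI4KO libraries stood at 122.9, 11.72, 45.79, 1.89, 64.71, 48.8 and 6.505 CPM. Pfkm stood at 3863 CPM in WV_FX_5413, above 2792 CPM in the next. Tpi1 stood at 419.9 CPM in BAT_FX_5503, above 292 CPM in the next.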

How the results depend on the processing

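In BAT, DESeq2 called 2 of the 35 genes for genotype and the fit with title numbers as a replicate block called 1, Phkg1 (1.37, adjusted p = 0.0445). Whether the numbers pair the libraries is not stated, and so few correlations cannot settle it. Same-numbered libraries correlated at 0.134, -0.121 and 0.067, and unlike-numbered ones at -0.234 to 0.17. Only 4 tags were shared by both tissues, so a fit with these tags as a block compares the tissues through few libraries. In it, 20 of the 35 were higher and 12 lower in WV of floxed mice and 20 and 11 in BATI4KO mice. Of all 16622 genes tested there, 4769 were higher and 4656 lower in floxed mice and 4694 and 4550 in BATI4KO mice. The median of the muscle isoforms was -0.005 with the fast muscle score as a covariate and 1.108 to 2.349 with single libraries left out. In WV DESeq2 called 1. For the difference between tissues, long tags alone gave 1 higher call and leaving out single libraries 0 to 1. On the fast score slope, single libraries left out gave 2 to 6 higher calls and long tags alone 1. On the slow score slope they gave 1 to 3 higher and 0 to 4 lower, RLE factors gave 1 lower, upper-quartile factors 4 lower, and leaving out WV_KO_5492 and WV_KO_5495 together 0 and 0. For both slopes, the difference between tissues and the BAT replicate block, all-gene counts in these settings are not given here. These calls among the 35 therefore cannot be judged against a background. With library totals, Slc2a1, Hk2 and Pfkfb1 reversed between tissues in BATI4KO mice (-0.484, -0.157 and -0.278). As shares of counts, Pfkm held 99.5% in WV of both genotypes, and Pgam2 held 0.615% in floxed BAT and 99% in WV of both. With Ckm as the denominator, the BAT over WV ratio of medians in floxed mice was 2.43 for Pgam2, 2.31 for Eno3 and 2.48 for Pygm, and 1.31 for Pygm in BATI4KO mice. The causes were not tested. Genes at a few CPM, such as Aldoc, Slc16a3 and Pgam2 in BAT, rest on few counts.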

Other observations

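The library that was highest or lowest differed by gene group. BAT_FX_5503 was the highest of 11 for 15 of the 35 genes, among them Gpd1, Hk2, Ldha, Pfkl and Slc16a1, and the lowest for Eno3, Pgam2 and Pygm; it also had the lowest contractile sum, at 266 CPM. BAT_KO_3 was the highest for 7 genes and the lowest for 10, among them Gpd1, Pfkl, Pgam1 and Ldha. In WV, WV_KO_5492 was the lowest of 10 for 12 genes, among them Pfkm, Pygm and Gpd2, and the highest for Slc16a1. The steadiest genes across BAT were Gys1, Slc2a4 and Ldhb, whose highest library was 1.36, 1.38 and 1.41 times the lowest, and the widest was Pygm at 43.9 times. In WV Ldhb spanned 13.2 times and Pfkfb3 21.5 times.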
